A study of Mus musculus with 4 samples.

Results

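A set of 10 genes that make, break down, anchor or cross-link hyaluronan was followed in the sorted palatal mesenchyme of *Foxf2* mutant and control mouse embryos. They are the synthases *Has1*, *Has2* and *Has3*, the breakdown genes *Hyal1*, *Hyal2* and *Tmem2*, the receptor *Cd44*, the proteoglycan *Vcan*, and the link proteins *Hapln1* and *Hapln3*. They were chosen by name for their roles and are 10 of the 21352 genes with a usable estimate, and 5 of them were among the 7399 genes expressed highly enough to test. No member passed the test, and none differed by more than 1.5-fold from both controls. The most abundant of them, *Vcan*, had a 1.24-fold higher mean in the mutants. The low-abundance *Hapln3* had a value in both mutants that was below both controls, and *Hapln1* a value above both.

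Hyaluronan is a very long, unbranched sugar polymer that synthases in the plasma membrane spin out directly into the space around the cell. There it binds water, so a matrix rich in it swells, and proteoglycans such as versican attach to it through a head domain that link proteins lock in place. Hyaluronidases and cell-surface proteins cut the polymer, and Cd44 ties it to the cell surface and, through adaptor proteins, to the cytoskeleton. In the palatal shelves, which grow beside the tongue and then turn up to meet above it, hyaluronan is an abundant part of the mesenchymal matrix and has long been studied for its part in shelf elevation.

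RNA was sequenced from 4 littermate embryos at E13.5, of mixed strain background, each carrying 1 *Osr2*RFP allele, which makes *Osr2*-expressing palatal mesenchyme fluoresce red. The RFP-positive cells of the dissected shelves were sorted, 1 library per embryo. The controls were 1 *Osr2*RFP/+ embryo with both *Foxf2* alleles (*Foxf2*+/+) and 1 *Foxf2*+/-*Osr2*RFP/+ embryo, and the mutants were 2 *Foxf2*-/-*Osr2*RFP/+ embryos, in which *Foxf2* is missing from every tissue and not from the palate alone. Because each control genotype is a single embryo, genotype and embryo cannot be told apart within the control group. The measure is FPKM, a read level corrected for transcript length and for the mapped reads of the library, summed over the RefSeq entries of a gene, so levels of different genes can be compared per length. The 4 embryos are always listed in the order *Foxf2*+/+, *Foxf2*+/-, *Foxf2*-/- rep1 and *Foxf2*-/- rep2.

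*Foxf2* itself stood at 85.4, 45.1, 1.41 and 2.28 FPKM, in the order of the labelled genotypes, with a log2 fold change of -5.03 (SE 0.287, limma adjusted p = 0.000409). Marker genes fixed for 9 cell types showed *Osr2*, *Prrx1*, *Twist1* and *Pdgfra* at high levels in every library, with a summed mesenchymal level of 459 to 485 FPKM (controls) and 409 to 438 FPKM (mutants), 3 of 5 markers being lower in both mutants. Of the other cell types, the summed markers of blood, endothelium, and glia and neurons were higher, and those of muscle lower, in both mutants than in both controls. For the 5 erythroid markers the sums were 18.7 and 102 FPKM (controls) and 107 and 255 FPKM (mutants), 2 of the 5 being higher in both mutants and none at 0 in all libraries. The endothelial markers summed to 0.404 to 0.608 in the controls and 0.893 to 1.503 in the mutants, 3 of 5 higher in both mutants and all 5 below 1 FPKM throughout. Markers of glia and neurons summed to 3.48 and 5.27 in the controls and 5.44 and 5.77 in the mutants, 1 of 5 being higher in both mutants and none at 0 in all libraries. Muscle markers summed to 0.132 and 0.121 in the controls and 0.016 and 0.0865 in the mutants, 1 of 5 being lower in both mutants, with *Myog* and *Ckm* at 0 in every library. The part of these cells in the differences below was not tested, and in bulk RNA fewer cells of a type and less RNA per cell cannot be told apart.

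Testing was limited to genes at 5 FPKM or more in any of the 4 embryos and used the scale log2(FPKM + 0.1), and a gene was called at an adjusted p under 0.05 with a change of more than 1.5-fold. limma called 6 of all 7399 genes (0.0811%) and 0 of the 5 members tested, with an unadjusted p under 0.05 for 1084 genes and for 1 member, *Vcan*. The criterion of a change over 1.5-fold in the same direction against each control was met by 49 genes (0.662%) and by 0 members. Without the minimum of 5 FPKM it was met by 3.72% of the 17171 genes above 0, and still by 0 of the 10 members. Both mutants lay outside the range of both controls for 2 of the 5 tested members, *Vcan* above and *Tmem2* below, against 47.4% of all genes tested. Over all 10 members there were 5 such genes, *Vcan* and *Hapln1* above and *Has3*, *Tmem2* and *Hapln3* below, against 40.7% of the genes above 0. These shares are close to the background, so the counts are no result about the members. With 2 embryos against 2, an exact permutation test of a single gene cannot give a two-sided p below 0.333.

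The direction of small differences depended on how the libraries were scaled. The median log2 fold change of all genes tested was -0.08 as deposited. Of the genes whose groups did not overlap, 641 were higher and 2865 lower in the mutants, and after scaling each library by its median ratio to the other libraries 1593 were higher and 1652 lower. Among the members, *Vcan*, *Hapln1* and *Hapln3* remained outside the control range under both median-ratio and upper-quartile scaling, *Has3* under the first alone, and *Tmem2* under neither. The median log2 fold change of the 5 tested members was -0.05, and the median size of their changes without regard to sign was 0.05, against 0.12 over all genes tested. Of the 5 tested members, 4 lay within 0.2 of 0 on the log2 scale, as did 74.4% of all genes tested.

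**Figure D1:**
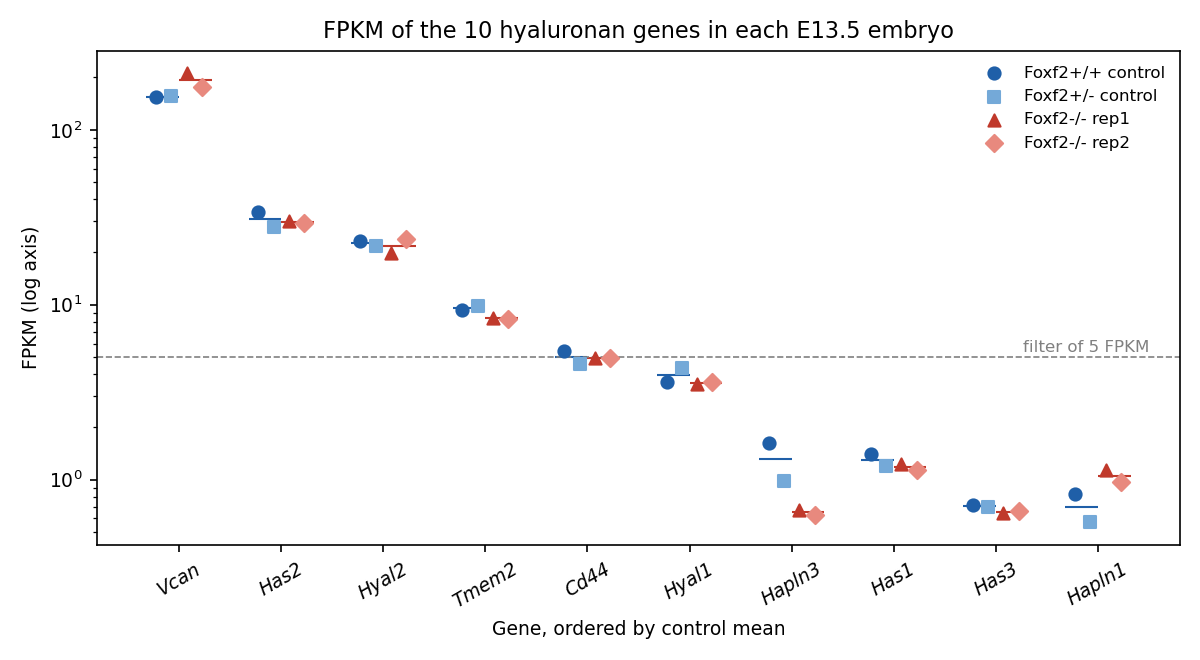
FPKM on a log axis for the 10 genes, ordered by their control mean, with 1 point per embryo and short lines at the mean of the 2 controls (blue) and of the 2 Foxf2-/- embryos (red). The dashed line marks the minimum of 5 FPKM for testing. The members run from Vcan, at 154 FPKM or more in every embryo, to Has3 and Hapln1 near 1 or below.

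The synthases were represented almost entirely by *Has2*, the enzyme that makes most hyaluronan in the embryo. *Has2* (mm9, chr15:56497182-56526101, minus strand) measured 33.99, 28.0, 30.1 and 29.3 FPKM, and both mutants fell between the controls. The means were 31.0 ± 4.26 in the controls and 29.7 ± 0.571 in the mutants (SD, n = 2 each). This is a log2 fold change of -0.05 (SE 0.111, limma adjusted p = 0.852), and its 95% interval reached from 0.807-fold to 1.15-fold, so a change of 1.5-fold in either direction lies outside it. The sign turned to 0.03 under median-ratio scaling and to 0.01 under upper-quartile scaling. *Has2* ranked 1238 of 21352 genes by its control mean.

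*Has1*, a synthase of the same family (chr17:17980290-17992152, minus strand), measured 1.39, 1.198, 1.23 and 1.13 FPKM with overlapping groups. *Has3*, a synthase that makes shorter chains (chr8:109394142-109406802, plus strand), measured 0.720, 0.700, 0.649 and 0.665 FPKM. Both mutants were below both controls for *Has3*, by a log2 fold change of -0.10. Neither reached the level for testing. *Has2* made up 94.1, 93.6, 94.1 and 94.2% of the FPKM of the 3 synthases together, so the makeup of the synthase pool was almost the same in each embryo.

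The *Has2* locus also holds *Has2as*, an antisense transcript named here after its values were seen (chr15:56521499-56526015, plus strand). It shares 4517 bases of genome with *Has2* and measured 12.8, 12.4, 9.97 and 11.3 FPKM, below both controls in both mutants (log2 fold change -0.24, limma adjusted p = 0.314). The Nextera kit used does not mark the strand of the RNA. Reads in the overlap of *Has2* and *Has2as* therefore cannot be told apart by strand.

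The synthases are supplied with UDP-glucuronic acid and UDP-N-acetylglucosamine by a group of metabolic enzymes. Of 8 such genes 6 were tested, 0 were called by limma and 0 had an unadjusted p under 0.05, both mutants lay below both controls for 1 of the 6, and their median log2 fold change was -0.02. *Gpi1*, which interconverts the sugar phosphates that feed both branches, had the highest level and the largest change of those tested. It measured 25.4, 22.6, 20.8 and 23.8 FPKM, with overlapping groups (log2 fold change -0.11, limma adjusted p = 0.683).

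Among the breakdown genes *Hyal2*, a hyaluronidase held at the cell surface by a lipid anchor, was the most abundant. *Hyal2* (chr9:107471494-107475109, plus strand) measured 23.2, 21.6, 19.7 and 23.7 FPKM. The 2 mutants were the lowest and the highest of the 4 embryos. Their mean gave a log2 fold change of -0.05 (95% interval -0.31 to 0.20, limma adjusted p = 0.867), and it was 0.03 under median-ratio and 0.02 under upper-quartile scaling.

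*Hyal1*, the lysosomal hyaluronidase, lies 4173 bases from *Hyal2* on the same strand (chr9:107479283-107482464). It measured 3.62, 4.35, 3.53 and 3.62 FPKM and was not tested. *Foxf2*+/- was the high embryo and the other 3 were nearly equal. *Hyal2* made up 80.4, 75.6, 78.0 and 80.9% of the summed FPKM of *Hyal1*, *Hyal2* and *Hyal3*.

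*Tmem2*, a transmembrane protein that cuts hyaluronan at the cell surface (now named *Cemip2*, chr19:21852832-21932817, plus strand), measured 9.32, 9.86, 8.45 and 8.31 FPKM. Both mutants were below both controls. The log2 fold change was -0.19 (SE 0.096, 95% interval -0.41 to 0.03, limma adjusted p = 0.392). The separation rested on the sum of 2 RefSeq entries of 6585 and 6667 bases. The first was at 7.39, 7.30, 6.50 and 8.31 FPKM and the second at 1.94, 2.56, 1.95 and 0.000168 FPKM, so in *Foxf2*-/- rep2 the program assigned nearly all reads to the first. With the first entry alone the log2 fold change of *Tmem2* was 0.0011.

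Of 9 further breakdown genes, 4 were listed at 0 in every embryo, and 2 were tested. *Hexa*, a subunit of lysosomal hexosaminidase, measured 9.29, 9.04, 6.62 and 7.43 FPKM (log2 fold change -0.38, limma adjusted p = 0.23). *Gusb*, the lysosomal beta-glucuronidase, measured 6.58, 5.56, 4.15 and 4.62 FPKM (log2 fold change -0.46, limma adjusted p = 0.264). Both enzymes, which trim short hyaluronan fragments and other sugar chains from their ends, were lower in both mutants than in both controls with an unadjusted p under 0.05, and 0 of the 2 were called.

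*Cd44*, the main cell-surface hyaluronan receptor (chr2:102651300-102741822, minus strand), measured 5.46, 4.56, 4.93 and 4.96 FPKM. The controls were the highest and the lowest embryos, and both mutants lay between them. On the log2 scale they differed by -0.01 (95% interval -0.37 to 0.35, limma adjusted p = 0.982), and 0.07 under median-ratio and 0.06 under upper-quartile scaling. *Cd44* reached the level for testing through the *Foxf2*+/+ embryo alone.

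*Cd44* transcripts differ in a run of variable exons between exon 5 and exon 16 of the gene. The junctions below are shown because they tell the standard form, which skips the whole run, from the form that keeps its last 2 exons. Each gives the last 30 bases of exon 5 in lower case and the first 30 of the next exon in capitals, from the NCBIM37 (mm9) transcripts, with exon 5 ending at chr2:102693172, exon 16 starting at chr2:102668767 and exon 14 at chr2:102672729.
Cd44 standard form, exons 5 and 16: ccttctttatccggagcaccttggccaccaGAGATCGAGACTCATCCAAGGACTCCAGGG
Cd44 longer form, exons 5 and 14: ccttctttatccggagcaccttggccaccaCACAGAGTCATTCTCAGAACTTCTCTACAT
The standard form made up 98.2, 92.7, 94.1 and 84.3% of *Cd44* FPKM. The form with exons 14 and 15, which is 297 bases longer, made up 0.584, 2.34, 3.87 and 11.5%, higher in both mutants than in both controls but below 0.6 FPKM throughout. At 6.86 to 7.69 mean reads per base for the whole gene, these shares rest on few reads and were not tested.

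Of 8 genes that link Cd44 to the cytoskeleton or act with it, 6 were tested, 0 were called and the median log2 fold change was -0.05. *Rhoa*, a GTPase that controls actin contraction, was the most abundant at 92.0, 85.8, 82.0 and 87.3 FPKM (log2 fold change -0.07, limma adjusted p = 0.761, and 0.01 under median-ratio scaling). *Msn*, which encodes moesin, a protein that joins Cd44 to actin, had the largest change of those tested. It measured 31.8, 28.0, 24.3 and 26.3 FPKM, below both controls in both mutants (log2 fold change -0.24, limma adjusted p = 0.332).

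**Figure D2:**
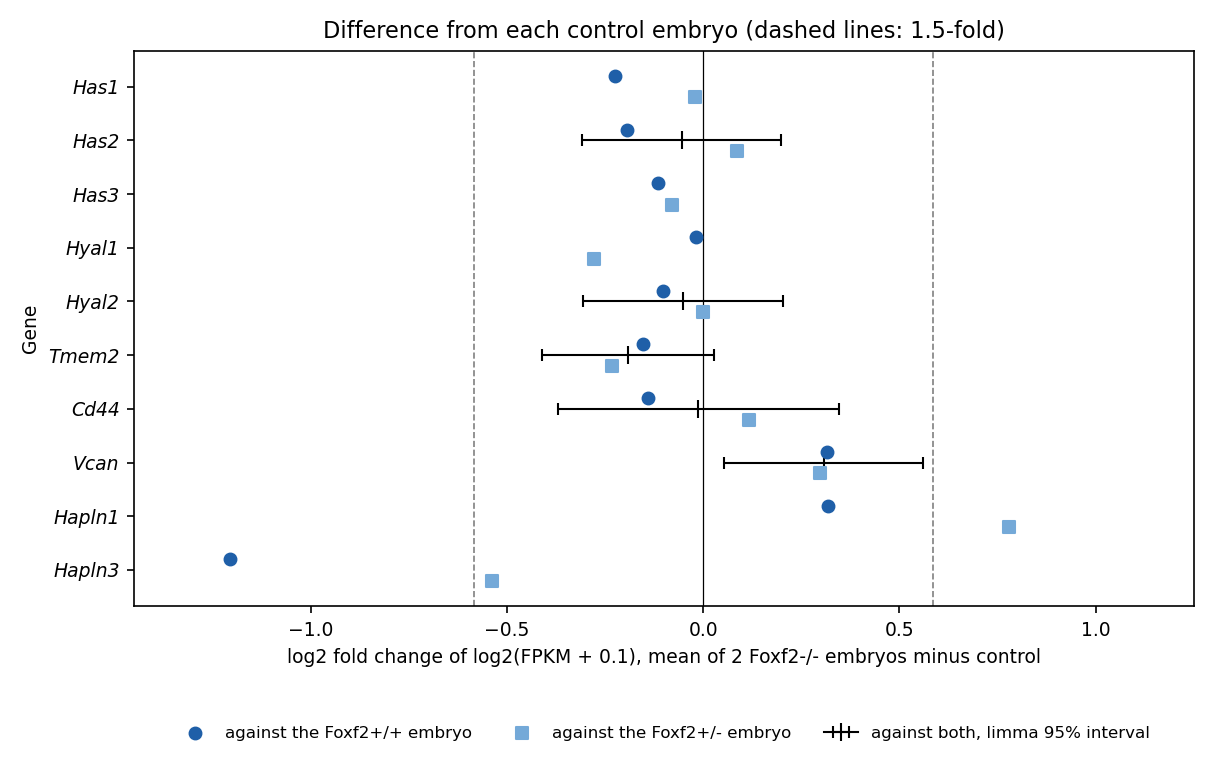
Log2 fold change of each gene, the mean of the 2 Foxf2-/- embryos minus the Foxf2+/+ embryo (circles) or the Foxf2+/- embryo (squares), on the log2(FPKM + 0.1) scale. Black bars are limma's 95% intervals of the change against both controls for the 5 genes tested, and dashed lines mark 1.5-fold. Hapln1 and Hapln3 each pass the 1.5-fold line against 1 control and not against the other, and the Vcan points lie together at 0.30 and 0.32.

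*Vcan* encodes versican, the large proteoglycan that binds hyaluronan and fills embryonic mesenchyme (chr13:89794915-89882117, minus strand). It measured 154.0, 155.9, 210.6 and 174.6 FPKM. Both mutants were above both controls, the controls differed by 0.02 on the log2 scale and the mutants by 0.27. The means were 155 ± 1.38 in the controls and 193 ± 25.4 in the mutants (SD, n = 2 each). The *Vcan* log2 fold change was 0.31 (SE 0.111, 95% interval 0.05 to 0.56). limma gave it an unadjusted p of 0.0228 and an adjusted p of 0.278, so *Vcan* was not called.

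The difference in *Vcan* was alike against each control genotype, 0.32 against *Foxf2*+/+ and 0.30 against *Foxf2*+/-. It was 0.39 under median-ratio scaling. Leaving out *Foxf2*-/- rep1, the higher mutant, left 0.17, and leaving out rep2 left 0.44, so the size rested on which mutant embryo was kept. At 209 to 293 mean reads per base, *Vcan* was the most deeply covered of the 10 genes, and it ranked 193 of 21352 genes by its control mean. For each *Has2* FPKM there were 4.53, 5.58, 7.00 and 5.97 *Vcan* FPKM, a ratio that library scaling leaves unchanged, and both mutants were above both controls in it.

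The forms of versican differ in 2 large exons that carry its glycosaminoglycan chains, exon 7 (GAGα, chr13:89842523-89845402, 2880 bases) and exon 8 (GAGβ, chr13:89827890-89833106, 5217 bases). V0 keeps both, V1 keeps exon 8, V2 keeps exon 7 and V3 keeps neither. The junctions that tell them apart are shown because the deposited values split *Vcan* by form, again with 30 bases of the upstream exon in lower case and 30 of the downstream exon in capitals, from the NCBIM37 (mm9) transcripts.
Vcan exons 6 and 7, V0 and V2: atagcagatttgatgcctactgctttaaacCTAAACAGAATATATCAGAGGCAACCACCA
Vcan exons 7 and 8, V0: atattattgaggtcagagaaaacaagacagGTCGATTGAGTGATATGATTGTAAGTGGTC
Vcan exons 6 and 8, V1: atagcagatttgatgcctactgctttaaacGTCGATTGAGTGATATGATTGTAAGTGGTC
Vcan exons 6 and 9, V3: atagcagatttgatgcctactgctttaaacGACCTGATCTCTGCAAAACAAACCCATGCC
V1 and V3 share the end of exon 6 with V0, so only a read that crosses a junction, or that lies in exon 7, separates V0 from V1.

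V0 was the main form in every embryo, with 104, 111, 148 and 111 FPKM. *Foxf2*-/- rep2 was at 110.9 and the *Foxf2*+/- embryo at 111.1, so the groups overlapped (log2 fold change 0.25, limma adjusted p = 0.542 over the 7821 entries tested). V1 had 47.2, 42.1, 58.8 and 60.1 FPKM. Here both mutants were above both controls, and the mutants were close to each other (log2 fold change 0.41, SE 0.0886, 95% interval 0.19 to 0.64). The unadjusted limma p of V1 was 0.00463 and the adjusted p 0.394, and limma called 0 entries of 7821 (0%).

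V0 made up 67.5, 71.2, 70.3 and 63.5% of *Vcan* and V1 30.7, 27.02, 27.9 and 34.4%, with overlapping groups for both shares. V2 reached at most 0.0863 FPKM and V3 was at 0 to the precision of the values. A short entry that runs from exon 1 through exon 6 and on into the next intron, ending at chr13:89849553, measured 2.84, 2.69, 3.68 and 3.66 FPKM. Both mutants were above both controls in it, as in the whole gene, and it held 1.72 to 2.10% of *Vcan* FPKM.

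**Figure D3:**
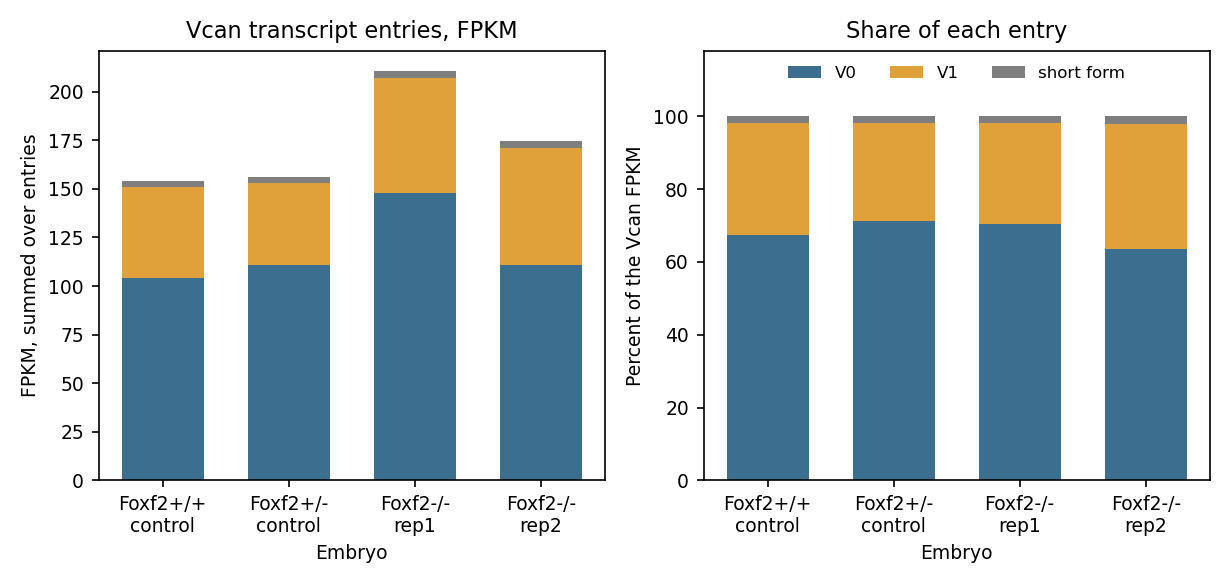
Vcan FPKM in each of the 4 embryos, stacked by transcript form (left), and the same as percent of the embryo's Vcan FPKM (right). V0 and V1 make up nearly all of it in every embryo, the Foxf2-/- rep1 bar is the tallest at 210.6 FPKM, and the shares of V0 lie between 63.5 and 71.2%.

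Versican is cut by secreted proteases of the Adamts family. Of 6 *Adamts* genes 3 were tested, 0 were called by limma, 1 had an unadjusted p under 0.05 and 1 met the criterion against both controls. *Adamts9* measured 2.72, 3.99, 7.41 and 7.98 FPKM, both mutants well above both controls. Its log2 fold change was 1.198 (SE 0.193, 95% interval 0.76 to 1.64, limma adjusted p = 0.0706). *Adamts9* reached 5 FPKM in the mutants alone, and it is on the study's list of changed genes chosen from these libraries, so its direction is not independent evidence. The *Adamts9* log2 fold change was 0.93 without the *Foxf2*+/+ embryo and 1.465 without the *Foxf2*+/- embryo. Its adjusted limma p depended on the setting. It was 0.0203 in a fit linear in the number of *Foxf2* null alleles, which draws its spread on all 4 embryos. At a filter of 1 FPKM it was 0.104, without a filter 0.364, and under median-ratio and upper-quartile scaling 0.115 and 0.0984. A fit with a mean for each genotype gave a lower p than any of these, not printed because each control genotype is then a single embryo. Where the filter of 5 FPKM was used, *Adamts9* entered through its mutant values, so a low p there is not support for the change.

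*Adamts1*, a related protease with the highest control level of the list, measured 9.76, 5.66, 7.89 and 8.43 FPKM. The controls were the highest and the lowest embryos (log2 fold change 0.13, limma adjusted p = 0.808, and -0.26 without the *Foxf2*+/- embryo). The median over the 3 tested proteases was 0.13, and it was 0.52 without the *Foxf2*+/+ embryo and -0.19 without the *Foxf2*+/- embryo.

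The 2 link proteins, which clamp proteoglycan heads onto hyaluronan, lay in opposite directions. *Hapln1*, the link protein of cartilage and of many embryonic matrices (chr13:89680241-89751437, plus strand), measured 0.824, 0.571, 1.14 and 0.968 FPKM, both mutants above both controls, with a log2 fold change of 0.55 made of 0.32 against *Foxf2*+/+ and 0.78 against *Foxf2*+/-. *Hapln1* and *Vcan* are neighbours on chromosome 13, with 43477 bases between them, and were the 2 members higher in both mutants.

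*Hapln3*, a link protein of the same family (chr7:86261913-86275904, minus strand), measured 1.63, 0.988, 0.670 and 0.628 FPKM. Both mutants were below both controls and close to each other, while the controls differed by 0.67 on the log2 scale. This made a log2 fold change of -0.87, -1.21 against *Foxf2*+/+ and -0.54 against *Foxf2*+/-, the largest of the 10 members. Its neighbour *Acan*, 1927 bases away, encodes the cartilage proteoglycan aggrecan and was at 0.0613, 0.0794, 0.0955 and 0.0490 FPKM.

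Neither link protein reached the level for testing. With the minimum lowered to 1 FPKM, limma gave an unadjusted p of 0.0309 and an adjusted p of 0.347 for *Hapln3*, and 0.13 and 0.51 for *Hapln1*. The mean read depth was 0.932 to 2.21 over *Hapln3* and 0.92 to 1.59 over *Hapln1*, so both rest on few reads. The ratio of *Hapln1* to *Hapln3*, which scaling of the libraries leaves unchanged, was 0.506, 0.578, 1.70 and 1.54. Because *Hapln1* was above and *Hapln3* below both controls in both mutants, this ratio had to separate the groups and adds no further evidence. *Hapln3* was the more abundant link protein in both controls and *Hapln1* in both mutants.

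The bases before the start of *Hapln3* are shown because this gene had the largest difference of the members and its window alone among theirs held a forkhead-type motif. The motif searched was TAAACA on either strand, the core that many Fox proteins bind, in 300-base windows from 250 bases before to 50 after each start in RefSeq (GRCm38.p6). It was found in 4416 of 32851 windows (13.4%) and in 1 of the 7 members present in that table, which were *Has1*, *Hyal1*, *Hyal2*, *Cd44*, *Vcan*, *Hapln1* and *Hapln3*. The 250 bases before the start are chr7:79131019-79131268 on the minus strand, in GRCm38.p6 and not in the mm9 coordinates used above, with the motif in capitals and its first base at position -237 from the start.
Hapln3 upstream: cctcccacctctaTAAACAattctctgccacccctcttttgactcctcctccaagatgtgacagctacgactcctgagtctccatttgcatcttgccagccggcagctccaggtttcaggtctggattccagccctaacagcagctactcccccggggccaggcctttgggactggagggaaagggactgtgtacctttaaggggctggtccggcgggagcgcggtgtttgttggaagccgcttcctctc
A match of letters is a description of this window and not evidence of binding, and binding was not measured.

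Other proteins that bind or cross-link hyaluronan were mostly scarce in these cells. Of 20 genes, 13 stayed below 1 FPKM in every embryo, 4 were tested, 0 were called by limma, 2 had an unadjusted p under 0.05 and 1 met the criterion against both controls. *Hmmr*, a hyaluronan-binding protein that also acts on the mitotic spindle, was the most abundant at 13.1, 14.3, 13.996 and 13.1 FPKM (log2 fold change -0.01, limma adjusted p = 0.973, and 0.07 under median-ratio and 0.06 under upper-quartile scaling). *Ptx3*, a secreted pentraxin that helps to cross-link hyaluronan around the oocyte, measured 3.79, 3.81, 5.97 and 6.86 FPKM, both mutants above both controls (log2 fold change 0.74, limma adjusted p = 0.12). It reached 5 FPKM in the mutants alone and is likewise on the study's list chosen from these libraries, so its direction is not independent evidence. The adjusted limma p of *Ptx3* was 0.115 at a filter of 1 FPKM, 0.364 without a filter and 0.165 in the fit linear in null alleles. A fit with a mean for each genotype gave a lower p, not printed because each control genotype is then a single embryo. As for *Adamts9*, a low p at the filter of 5 FPKM is not support for the change.

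**Figure D4:**
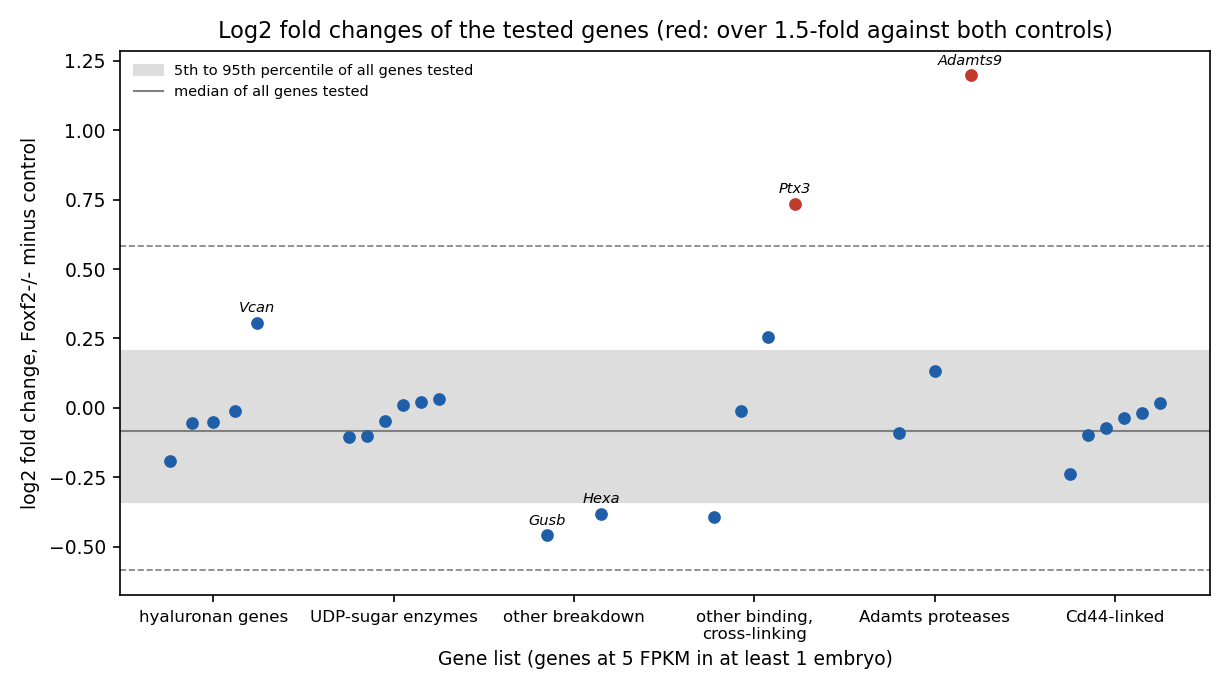
Log2 fold change, Foxf2-/- minus control, of every tested gene in the hyaluronan set and in 5 related lists, with the median of all genes tested (grey line) and their 5th to 95th percentiles (grey band, -0.34 to 0.20). Dashed lines mark 1.5-fold and red points the 2 genes beyond it against both controls, Ptx3 and Adamts9. Vcan lies just above the band and the other 4 tested members lie inside it.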

How the data were processed

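The authors aligned single-end reads to mm9 with Bowtie 0.12.7 (version per the submitters' processing notes) and Tophat, and deposited 1 table of RefSeq transcript entries per embryo, with no pooling. The deposited FPKM are scaled by the authors to transcript length and mapped reads. The coverage column, as deposited, is the mean number of reads over each base of an entry and is not scaled to library size. The tables are named as output of Cufflinks, whose version and options are not given in the sources used here.

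FPKM were summed by gene symbol over entries of at least 200 bases. Of 22096 symbols, 10 whose FPKM estimate had failed in an embryo were dropped. Genes at 5 FPKM or more in at least 1 embryo were tested with limma 3.58.1 (R 4.3.3, variance trend, Benjamini-Hochberg) on log2(FPKM + 0.1), a scale that understates the change of low genes. The fit was tested on simulated data. Sums and shares were computed with pandas 2.3.3 in Python 3.11.15. Genes named are the members, and of each related list the most abundant, the most changed of those tested, and those called or past 1.5-fold against both controls. The members and lists were chosen with earlier results of these data known. Exon positions are from GENCODE for NCBIM37 (mm9) and promoters from RefSeq for GRCm38.p6.

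The depth in reads is unknown. From the ratio of coverage to FPKM, the depth relative to the *Foxf2*+/+ library was 1.19 for *Foxf2*+/-, 1.02 for *Foxf2*-/- rep1 and 1.14 for rep2. The embryos are separate animals of 1 experiment. The limma p-values set a difference against a spread estimated from these 4 samples and, through the variance trend, from all genes tested. Within the controls this spread also holds any difference between *Foxf2*+/+ and *Foxf2*+/-. Alternatives were other pseudocounts, filters, scalings, entry rules, models and folds, and leaving out each embryo.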

Additional observations from a re-analysis of the deposited data

How the results depend on the processing

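The 6 genes called by limma became 16 with a pseudocount of 1, 0 without a filter on low values, 26 with short entries kept, 11 and 12 under median-ratio and upper-quartile scaling, 1 with the highest entry only, 78 with a mean for each genotype, 33 in a fit linear in null alleles, and 9 to 122 when 1 embryo was left out (122 without *Foxf2*+/-, 34 without *Foxf2*+/+). The 49 genes past the criterion against both controls became 216 at a filter of 1 FPKM, 639 without a filter, 184 with short entries kept, 96 with the highest entry only, 564 at 1.2-fold, 17 at 2-fold, 218 and 90 against *Foxf2*+/+ or *Foxf2*+/- alone, and 69 to 217 when 1 embryo was left out (217 without *Foxf2*+/-, 87 without *Foxf2*+/+, 75 without *Foxf2*-/- rep1). In none of these was a member called by limma, and 1, *Vcan*, passed the criterion at 1.2-fold. The 2 tested members whose groups did not overlap became 1 under either scaling, 0 with the highest entry only, and 3 to 4 when 1 embryo was left out (4 without *Foxf2*+/-). Called entries went from 0 to 2 without the variance trend and 0 to 3 when 1 embryo was left out (3 without *Foxf2*+/-). Signs turned under median-ratio scaling for *Has2* (0.0263), *Hyal2* (0.0304), *Cd44* (0.0676), *Hmmr* (0.0701) and *Rhoa* (0.0103), under upper-quartile scaling for *Has2* (0.0144), *Hyal2* (0.0185), *Cd44* (0.0559) and *Hmmr* (0.0583), with the highest entry only for *Tmem2* (0.00112), and in the linear fit for *Hmmr* (0.0257) and *Adamts1* (-0.104). Leaving out 1 embryo moved *Has2* from -0.195 to 0.0854, *Hyal2* from -0.184 to 0.0828, *Hmmr* from -0.074 to 0.0524 and *Adamts1* from -0.256 to 0.519. With the highest entry only, the median of the *Adamts* list was 0.66. The causes were not tested. No paired analysis was possible because the embryos were littermates and the design holds no pairs of a mutant and a control. The depth in reads is unknown, so counting error could not be given for the 5 members under 5 FPKM.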
